A study of Drosophila melanogaster with 2 samples.

Results

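The calls described here are the weak promoter calls of the Zfh2-eGFP profile, the places near gene starts where the pooled data gave a call but where the reproducible peak list had no peak. The calls were chosen by their pooled signal, through the reproducible list, and by the annotation. They are calls of the relaxed list made from both replicates together, on the arms 2L, 2R, 3L, 3R and X. They share no base with any interval of the list kept by IDR, the irreproducible discovery rate, a measure of how well ranked calls repeat between replicates. Their summit, the base of highest signal, lies within 500 bp of an annotated transcription start site (TSS). Of 30000 pooled calls, 29724 lay on the 5 arms, 24646 of these shared no base with an IDR interval, and 6512 of those had their summit at a TSS. The 6512 calls made up 26.4% of the weak calls and 21.7% of the pooled list. They are set beside the 2782 IDR peaks with a summit within 500 bp of a TSS, called IDR promoter peaks, and beside the 18134 weak calls farther from a TSS.

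The data are chromatin immunoprecipitation sequencing of whole fly embryos collected from 0 to 24 hours, with males and females together. The embryos carried a stable transgene in which eGFP is joined to the C terminus of Zfh2, and an antibody against GFP pulled down the fusion. Chromatin was sonicated to 200 to 800 bp. There were 2 libraries, labelled as biological replicates 1 and 2 of 1 group, so no conditions could be compared, and a call is an average over every tissue and stage in the collection. The library depth in reads was not used here, and intervals on shares cover counting error only. Tests across calls describe these lists and not the spread between embryos, since neighbouring calls share DNA and all calls share 2 libraries.

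Zfh2 is a large transcription factor with many zinc fingers and several homeodomains, studied for its roles in the nervous system and at the base of the wing. Fly promoters fall into broad classes. Housekeeping promoters often carry the sequence bound by Dref, a regulator of replication and growth genes, or the sequence bound by M1BP, which is linked to paused polymerase at constitutive genes, and many stand back to back with the promoter of a neighbouring gene. Promoters of developmentally regulated genes more often carry a TATA box, an initiator or repeats bound by GAGA factor.

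The sequences below show what a weak promoter call looks like in DNA. Each is the 30 bases around a short word inside the window of 50 bp to each side of the summit, taken from the weak promoter call of highest signal that held the word on the arms shown, for each of the 9 words that differed in any test given further on. They are read from RefSeq's copy of the Release 6 plus ISO1 MT assembly (dm6), on the strand of the nearest gene, 5′ to 3′, and capitals mark the word on either strand. The call at rngo, on X, held the Dref word at 2 places, and both are shown.
rngo, chrX:16441494-16441523, plus strand, Dref word TATCGATA: tcccattcaacTATCGATAgtcagaccgcg
rngo, chrX:16441518-16441547, plus strand, Dref word TATCGATA: accgcgaatagTATCGATAaggcgtcgcat
CG1307, chr3R:6657400-6657429, minus strand, M1BP word GGTCACAC: ttccgcaattgGTGTGACCgcaagcgaaaa
CG33725, chr3L:12483058-12483087, plus strand, BEAF-32 word CGATA: tgaaatcatatcTATCGttgttttgataac
CG14043, chr2L:4971557-4971586, plus strand, TATA box TATAAA: tatgccttcaagTTTATAttagaggcgttt
Rbf, chrX:801726-801755, minus strand, initiator TCAGTT: taaccaacactgTCAGTTtaccgcacacat
stops, chr3R:31169165-31169194, minus strand, GAGA factor word GAGAGAG: tctctgtacaaaGAGAGAGtggagagaaag
scrib, chr3R:26536773-26536802, plus strand, CA repeat CACACACA: ctgcgtgtgcgTGTGTGTGtaaattccaaa
CG4199, chrX:2073496-2073525, minus strand, Snail-type E-box CAGGTG: cttggaaacaaaCACCTGccactgtggaac
Abcd3, chrX:19750880-19750909, plus strand, homeodomain core TAATTA: ctgagtagagtgTAATTAccaaacaaagaa

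The rngo summit lay 56 bp downstream of the TSS, with a pooled signal of 63.9, and both replicates had a summit within 200 bp of it, of signal 33.8 in replicate 1 and 29.4 in replicate 2. Its first Dref word began 72 bp and its second 96 bp downstream of the TSS. The CG1307 summit lay 1 bp downstream of the TSS with a pooled signal of 64.8, and the M1BP word began at 24 bp. At Rbf, which encodes the fly retinoblastoma protein, the summit lay 266 bp upstream of the TSS with a pooled signal of 64.1, and the replicates gave 29.6 and 31.8. The TATA box at CG14043 began 133 bp upstream of the TSS, where the position is −133 bp, and the initiator at Rbf began at −264 bp. A match is a run of letters in the window and not a measured binding site.

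The values that chose the calls are given as a description. The IDR list held 4344 entries, and these were the 4344 pooled calls of highest signal, so that the rule amounts to a limit on pooled signal plus the distance to a TSS. Signal here is the peak caller's own value, with no fixed scale. Weak promoter calls ran from 15.6 to 64.85, with a median of 25.3 and quartiles of 19.4 and 37.0, the lowest IDR peak stood at 64.88, and IDR promoter peaks had a median of 121. Another 758 calls below that limit overlapped an IDR interval and are left out, 471 of them at a TSS. At the limit on distance, 104 weak promoter calls with their summit in the last 10 bp within the 500 bp limit had a median signal of 21.53, and 84 weak calls in the first 10 bp beyond it had 22.13. A q-value at or below 0.05 was listed for 1932 weak promoter calls (29.7%) and for 2470 of the other weak calls (13.6%), and it began at a signal of 34.1. Of the 6512 calls, 6509 were 400 bp wide. The 5 arms held 1105 calls on X, 1175 on 2L, 1286 on 3L, 1387 on 2R and 1559 on 3R, and weak calls were between 69.5% and 70.6% of all weak promoter calls and IDR promoter peaks on each arm.

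Weak promoter calls were spread over both sides of the TSS, while IDR promoter peaks sat just upstream of it. The summit lay upstream of the nearest TSS in 52.8% of weak promoter calls (51.5% to 54.0%, 95% exact binomial interval), against 82.3% of IDR promoter peaks (80.9% to 83.7%), with an adjusted p of 1.2e-169 by Fisher's exact test, two-sided, with Benjamini-Hochberg adjustment over 4 features. The first 150 bp upstream, where the core promoter meets the nucleosome-free stretch of an active gene, held 28.4% of weak promoter summits against 58.2% of IDR promoter summits (exact adjusted p = 2e-159). Of all bases within 500 bp of a TSS, 45.2% lie upstream and 17.0% within those 150 bp. The median summit lay 10 bp upstream in weak promoter calls (position −10 bp) and 70 bp upstream in IDR promoter peaks (position −70 bp).

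Within the weak promoter calls, position moved with signal. The calls were sorted by pooled signal into 4 bands of 1628 calls each, band 1 the weakest and band 4 the strongest. From band 1 to band 4, 42.8%, 47.2%, 52.7% and 68.4% of summits were upstream, and 17.1%, 22.9%, 29.1% and 44.5% were in the first 150 bp upstream. The weakest band thus stood near the 45.2% and 17.0% that promoter bases themselves give, and the strongest stood above both. The strongest band exceeded the weakest for upstream summits with an adjusted p of 9.1e-49, and for the first 150 bp with an adjusted p of 9e-65, both by Fisher's exact test. The median position moved over the 4 bands in the order 39, 13, −8.5 and −44 bp. In the IDR promoter peaks, sorted into 4 bands in the same way, 75.4%, 84.6%, 86.8% and 82.5% of summits were upstream, all above the strongest weak band. The difference between the strongest and the weakest band was 25.6 percentage points in the pooled list, 28.4 in the list of replicate 2 alone and 12.7 in the list of replicate 1 alone.

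**Figure D1:**
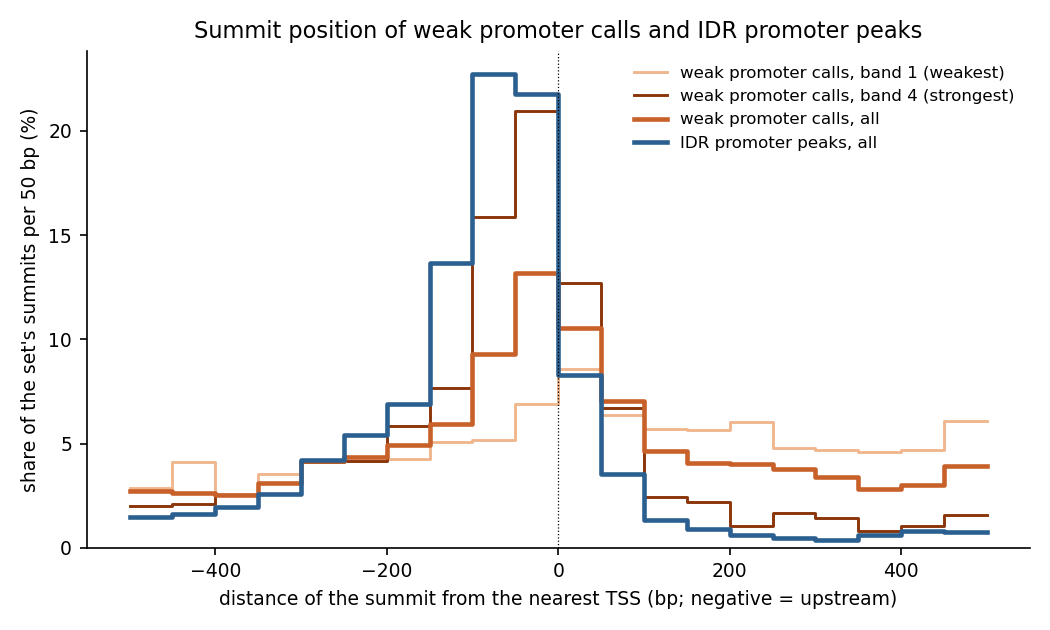
Share of summits per 50 bp (vertical axis, %) against distance from the nearest TSS (horizontal axis, bp, negative upstream), for the weakest and strongest bands and all weak promoter calls and for all IDR promoter peaks. The weakest band is the flattest of the 4 lines, the strongest band has 20.9% of its summits in the last 50 bp before the TSS, and IDR promoter peaks have 22.7% between 100 and 50 bp upstream.

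The annotation under the summit differed as well, in a comparison added after the values were seen. Coding exons held 859 weak promoter summits (13.2%) against 14 IDR promoter summits (0.503%), with an adjusted p of 2.4e-117 by Fisher's exact test over 6 kinds of place. Sequence outside genes held 30.8% of weak promoter summits against 57.4% of IDR promoter summits (exact adjusted p = 1.4e-125). Of the bases within 500 bp of a TSS, 22.4% are coding exon and 24.3% are outside genes. Summits in 5′ UTRs made up 25.7% against 18.0% (exact adjusted p = 9.1e-16), and summits in introns 22.6% against 20.2% (exact adjusted p = 0.0109). From band 1 to band 4 of signal, coding exons held 21.1%, 18.2%, 11.6% and 1.78% of the weak promoter summits, and sequence outside genes held 22.1%, 24.9%, 30.5% and 45.8%.

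Compared with IDR promoter peaks, weak promoter calls were found more often at noncoding transcripts and less often at head-to-head promoters. Compared with all TSS positions, both shares were lower. The nearest TSS belonged to a noncoding transcript in 12.2% of weak promoter calls against 4.03% of IDR promoter peaks (exact adjusted p = 3.4e-39, Fisher's exact test), beside 18.3% of all TSS positions. By gene class, 5716 weak promoter calls had a protein-coding gene nearest, 635 a long or other ncRNA, 75 a tRNA gene, 58 a snoRNA gene and 8 a snRNA gene. A TSS was called head-to-head where another gene on the opposite strand started within 1000 bp upstream. Such promoters were nearest to 26.2% of weak promoter calls against 51.0% of IDR promoter peaks (exact adjusted p = 9.3e-116), beside 31.8% of all TSS positions. Over the 4 bands of signal the head-to-head share was 21.6%, 22.0%, 27.2% and 34.1%, and the noncoding share was 16.2%, 13.6%, 11.4% and 7.62%. The strongest band differed from the weakest in both, with adjusted p-values of 2.2e-15 and 3.1e-14. Each of these shares was also lower, or for noncoding transcripts higher, than in IDR promoter peaks when the relaxed list of either replicate stood in for the pooled list.

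**Figure D2:**
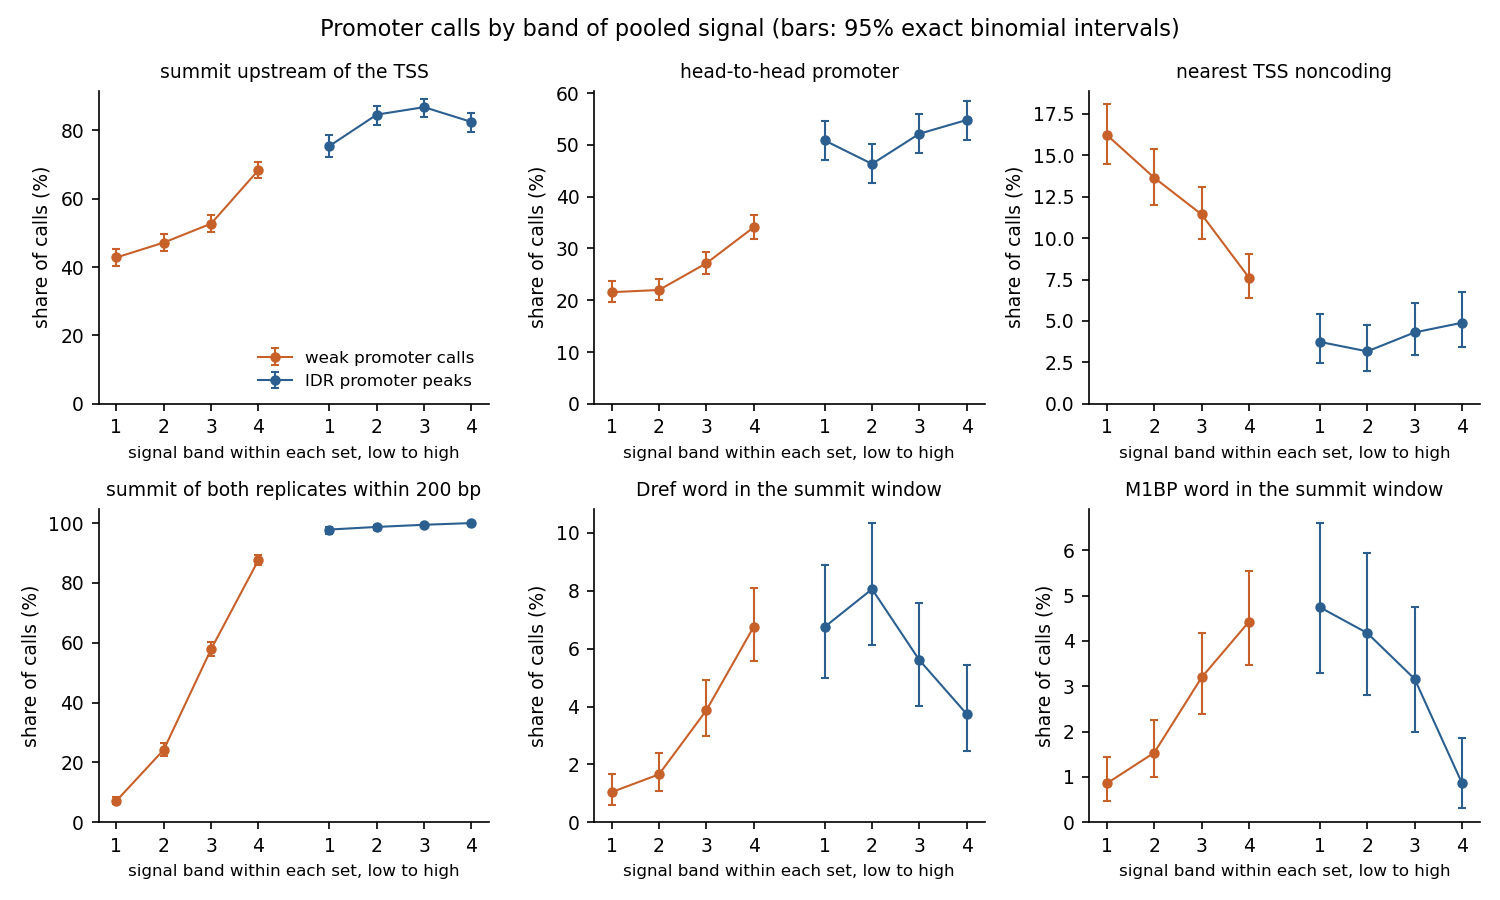
Share of calls (vertical axes, %) with each of 6 properties in the 4 signal bands of weak promoter calls (left points) and of IDR promoter peaks (right points), low to high, with 95% exact binomial intervals. Upstream summits, head-to-head promoters and support by both replicates increase through the weak bands, and the Dref and M1BP words reach 6.76% and 4.42% in the strongest weak band.

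The sequence at the summit was searched on both strands for 18 fixed words, in the window of 50 bp to each side, and the weak promoter calls were compared with IDR promoter peaks, with their own flank 1000 bp away and by signal. The rule puts every summit within 500 bp of a TSS, while the flank lies farther out, so shares in the flank are given as a description and nothing is read from their difference. Flank shares are the mean of the windows on both sides, while the exact McNemar test used the right side only. TATCGATA stood in 217 weak promoter windows, or 3.33% (2.91% to 3.797%), against 0.315% of flanking windows. It stood in 6.04% of IDR promoter windows (5.18% to 6.99%), so that weak promoter calls held it less often (exact adjusted p = 6.6e-08, Fisher's exact test over 18 words). All TSS windows held it in 3.75%, and windows at a TSS with no pooled call within 500 bp in 1.22%. GGTCACAC stood in 163 weak promoter windows, or 2.50%, against 0.330% of flanking windows. In IDR promoter windows it stood in 3.24%, a difference that did not pass the test (exact adjusted p = 0.102), and the intervals of 2.14% to 2.91% and 2.61% to 3.96% overlap. The M1BP word was lower in weak promoter calls past the threshold against only the IDR promoter peaks at or below their median signal, with 2.50% against 4.457% (exact adjusted p = 0.00103). It was also lower past the threshold with replicate 1 alone (exact adjusted p = 0.00733), in windows of 100 bp to each side (exact adjusted p = 0.00622) and with a promoter distance of 1000 bp (exact adjusted p = 4.2e-04). The difference did not pass with a promoter distance of 250 bp (3.57% against 3.76%, exact adjusted p = 0.842). Nor did it pass with TSSs of protein-coding transcripts only (exact adjusted p = 0.276) or with 1 call per interval (exact adjusted p = 0.102). With summits at least 1000 bp from every IDR interval it did not pass either (exact adjusted p = 0.0646). All TSS windows held the M1BP word in 3.92%.

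Both words moved with signal inside the weak promoter calls. From band 1 to band 4, TATCGATA stood in 1.04%, 1.66%, 3.87% and 6.76% of windows, and the strongest band exceeded the weakest with an adjusted p of 1.7e-17. GGTCACAC stood in 0.860%, 1.54%, 3.19% and 4.42% (exact adjusted p = 5.1e-10). In the bands of IDR promoter peaks TATCGATA stood in 6.75%, 8.06%, 5.60% and 3.74%, and GGTCACAC in 4.74%, 4.17%, 3.16% and 0.863%. The strongest weak band therefore lay next to the weakest IDR band for both words, with overlapping intervals of 5.59% to 8.09% and 5.004% to 8.88% for TATCGATA. The lists of replicate 1 alone and of replicate 2 alone gave the same direction for both words by signal, each past the threshold.

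Calls with the Dref word had the features of the stronger calls. The 217 calls with it had a median signal of 37.3, against 24.96 in the 6295 without it. A summit of both replicates lay within 200 bp in 68.7% of calls with the word against 43.4% without, the summit was upstream in 81.1% against 51.8%, and the promoter was head-to-head in 47.5% against 25.5%. For the M1BP word the same 4 values were 33.9 against 25.1 in median signal, 63.2% against 43.8% in both replicates, 71.8% against 52.3% upstream and 44.2% against 25.7% head-to-head. These values are descriptions without a test. The 2 words were rarely together, in 16 windows, and one or the other stood in 364 windows (5.59%), so that most weak promoter calls held neither.

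CGATA, which is part of TATCGATA and of the sequence bound by the insulator protein BEAF-32, stood in 19.6% of weak promoter windows against 30.7% of IDR promoter windows (exact adjusted p = 3.3e-29) and against 12.4% of flanking windows. It stood in 28.9% of the strongest band against 12.8% of the weakest (exact adjusted p = 1.1e-28), and in 21.4% of all TSS windows. The initiator word TCAGTT went the other way against IDR promoter peaks, with 7.85% of weak promoter windows against 5.79% (exact adjusted p = 0.00101), and it stood in 6.22% of flanking windows and 14.7% of all TSS windows. Both words kept their direction against IDR promoter peaks and stayed past the threshold in the list of each replicate.

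Among other words, 2 of the differences from IDR promoter peaks depended on the replicate. The repeat GAGAGAG, bound by GAGA factor, stood in 2.49% of weak promoter windows against 1.29% of IDR promoter windows (exact adjusted p = 6.4e-04) and 1.39% of flanking windows, but with replicate 2 alone it stood in 1.81% and the difference from IDR promoter peaks did not pass (exact adjusted p = 0.168). CACACACA stood in 2.64% against 1.04% of IDR promoter windows (exact adjusted p = 1.9e-06) and 1.87% of flanking windows, and the difference from IDR promoter peaks passed with each replicate alone. The E-box CAGGTG, of the type bound by Snail, stood in 4.85% against 3.56% of IDR promoter windows (exact adjusted p = 0.0116), and this call was likewise lost with replicate 2 alone (exact adjusted p = 0.236).

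The TATA box and the homeodomain core differed between the replicates in direction. TATAAA stood in 10.6% of weak promoter windows against 13.95% of IDR promoter windows (exact adjusted p = 3.1e-05), beside 11.7% of flanking windows and 14.96% of all TSS windows. With replicate 1 alone it stood in 8.07% of windows, beside 10.9% of its right flank, and with replicate 2 alone in 15.2%, beside 10.8%. TAATTA, the core that many homeodomains bind, stood in 4.42% of weak promoter windows against 6.29% of IDR promoter windows (exact adjusted p = 6.4e-04) and 6.07% of flanking windows. With replicate 1 alone it stood in 3.19%, and with replicate 2 alone in 6.56%, where the difference from IDR promoter peaks did not pass the test. No direction for these 2 words can therefore be given for both replicates.

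The exact McNemar test put 7 of 18 words past the threshold against the right flank, 6 higher and 1 lower. The rule bears on that count, and it is not read as a result. In all, 8 of 18 words differed from IDR promoter peaks, 4 higher and 4 lower, and 3 were more frequent in the strongest band. Against only the IDR promoter peaks of lower signal, at or below their median, 4 of the 8 differences from IDR promoter peaks did not pass Fisher's exact test. The adjusted p by the exact test was then 0.0756 for the initiator, 0.107 for the GAGA factor word, 1.00 for the Snail-type E-box and 0.0982 for the homeodomain core. Words of Zelda (CAGGTAG, 0.353% against 0.359% of IDR promoter windows), of AP-1 (TGACTCA, 0.998% against 0.899%) and of Myc (CACGTG, 1.54% against 1.47%) passed none of the 3 tests. The median GC content of the windows was 44.6% in weak promoter calls (flank 43.6%), 38.6% in IDR promoter peaks (flank 46.5%) and 43.6% at all TSSs. Over the 4 bands of signal it was 46.5%, 45.5%, 44.1% and 41.6%. Base composition thus moved with signal and with the set, and its part in the differences of the words was not tested.

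**Figure D3:**
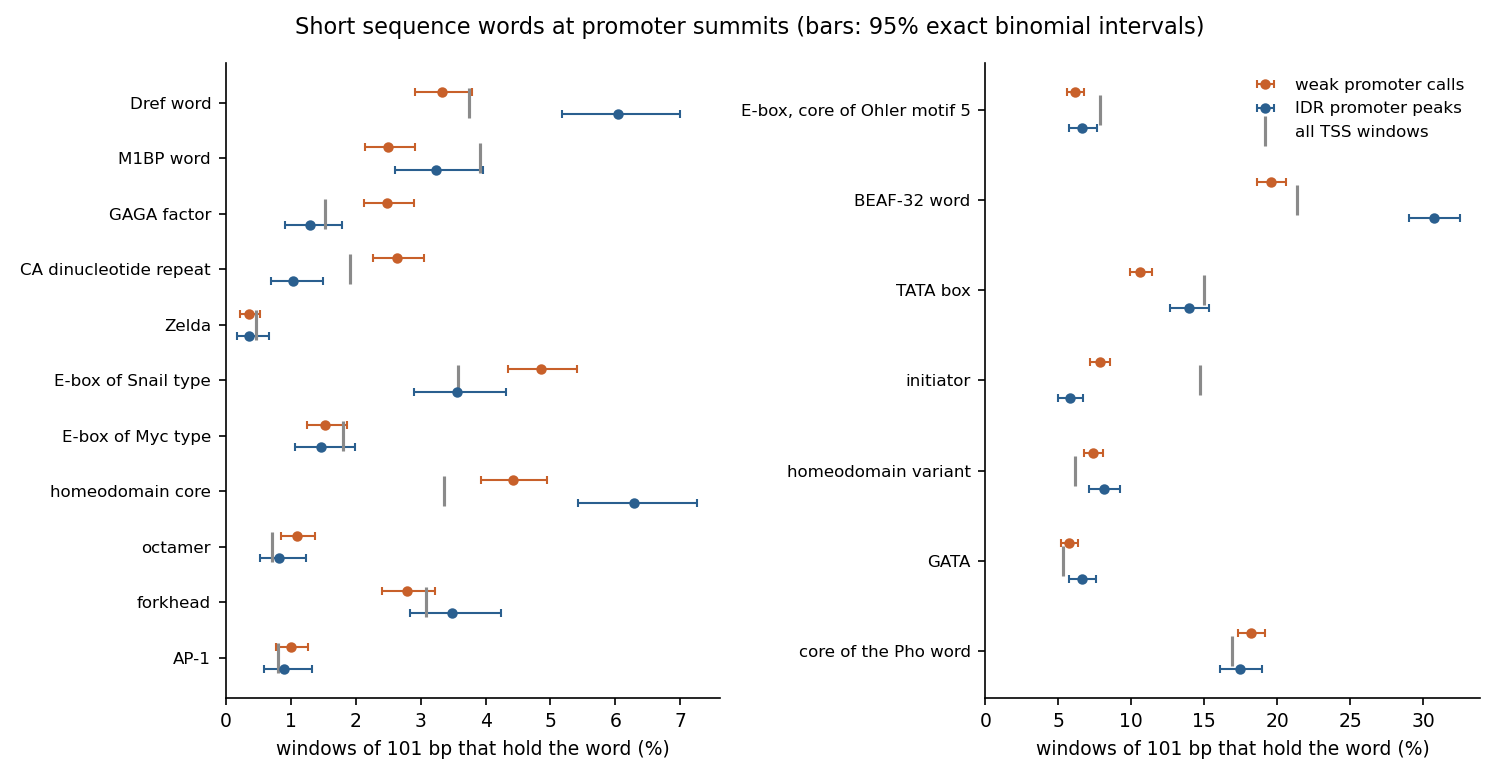
Share of summit windows (horizontal axes, %) that hold each of 18 words in weak promoter calls (upper point of each pair) and IDR promoter peaks (lower point), with 95% exact binomial intervals and with all TSS windows as a grey mark. The Dref word stands at 3.33% against 6.04%, and the GAGA factor word at 2.49% against 1.29%.

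Fewer than 1 in 2 weak promoter calls were backed by both replicates. A summit of both replicates lay within 200 bp of 2881 calls, or 44.2% (43.0% to 45.5%), of replicate 1 only at 2109 (32.4%), of replicate 2 only at 1172 (18.0%) and of neither at 350 (5.38%). Among IDR promoter peaks, whose list was made from agreement between the replicates, 99.0% had both. The share backed by both was 7.19%, 24.3%, 57.9% and 87.7% over the 4 bands of signal. In the 2881 calls with both, signals of the replicates had a Spearman rho of 0.25 and a Pearson r of 0.23 on log2 values, over calls of the same 2 libraries, against 0.68 and 0.74 in 2754 IDR promoter peaks. The choice of the calls bears on these values, since weak promoter calls span a narrow range of pooled signal and the IDR list was chosen for agreement, and the difference is not read as a result.

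Against other weak calls, weak promoter calls were more often backed by both replicates, with 44.2% against the background of 31.7% (p = 9e-73, Fisher's exact test, two-sided), but their signals also differed, with medians of 25.3 and 21.2. Within 4 bands of the signal of all weak calls the shares were 5.93% against 3.97%, 15.6% against 13.3%, 37.8% against 40.9% and 80.5% against 82.7%, low to high. The adjusted p-values were 0.019, 0.0344, 0.0344 and 0.0344, with promoter calls higher in the 2 lower bands and lower in the 2 upper ones. Promoter calls stayed higher in band 1 under every alternative run, by 0.72 to 10.24 percentage points, but the difference did not pass with a promoter distance of 1000 bp (exact adjusted p = 0.2037) or with replicate summits within 100 bp (exact adjusted p = 0.0696). In each of the other 3 bands the direction turned round under another replicate distance.

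The calls that only 1 replicate backed were unlike each other, in a comparison made after the values were seen. Calls of replicate 1 only had a median GC content of 48.5% (quartiles 41.6% and 54.5%), and calls of replicate 2 only 40.6% (33.7% and 47.5%). The summit was upstream of the TSS in 41.2% of calls of replicate 1 only and in 57.3% of those of replicate 2 only (exact adjusted p = 4.2e-18, Fisher's exact test over 7 properties). Coding exons held 21.4% of the summits of replicate 1 only and 10.3% of those of replicate 2 only (exact adjusted p = 4.5e-16). TATAAA stood in 6.543% against 15.8% (exact adjusted p = 3.2e-16), TAATTA in 2.94% against 6.31% (exact adjusted p = 1.1e-05), and TATCGATA in 1.33% against 2.99% (exact adjusted p = 0.00182). Head-to-head promoters were nearest to 23.0% of calls of replicate 1 only and 24.7% of those of replicate 2 only (exact adjusted p = 0.265). Their pooled signals were close, with medians of 21.1 and 20.8. Calls backed by both replicates had a median signal of 36.8 and a GC content of 42.6%, and 61.0% lay upstream, 7.32% in coding exons, and 5.17% held TATCGATA. In the complete lists, weak promoter calls of replicate 1 numbered 6543 with a median GC content of 46.5%, and those of replicate 2 numbered 5731 with 39.6%, beside flanks of 43.6% in each. What set the replicates apart was not tested.

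**Figure D4:**
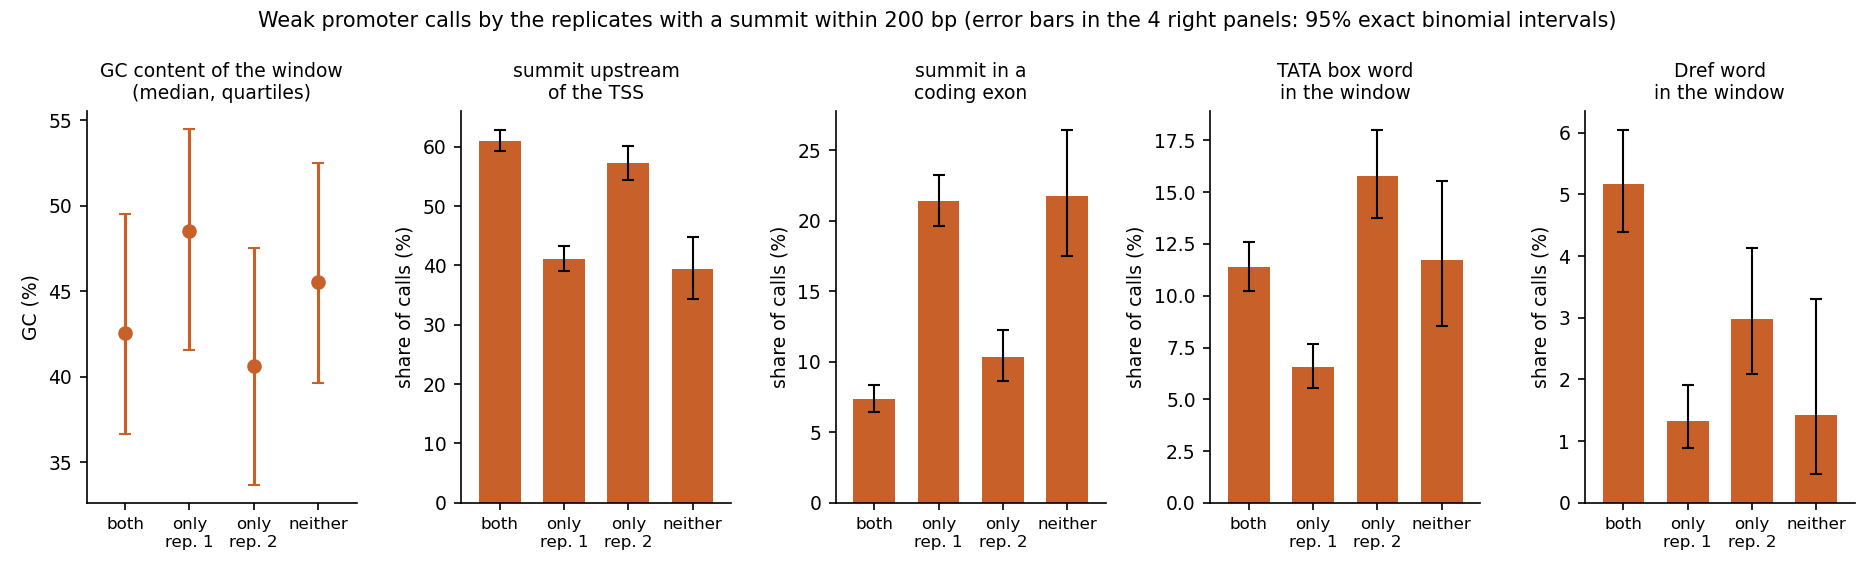
Weak promoter calls grouped by which replicate had a summit within 200 bp (horizontal axes), with median and quartiles of GC content (%) and shares (%) with 95% exact binomial intervals for 4 properties. Calls of replicate 1 only have the higher GC content (48.5% against 40.6% in replicate 2 only) and the larger share in coding exons, and calls in both have the largest share with the Dref word.

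Weak promoter calls touched many genes. A weak promoter summit lay within 500 bp of a TSS of 5961 genes, among them 4935 of the 13865 protein-coding genes (background 35.6%), and an IDR promoter peak lay there for 3408 (background 24.6%). Of the protein-coding genes, 31.0% had a weak promoter call only, 4.56% had both kinds, 20.02% had an IDR promoter peak only and 44.4% had neither. The share with a weak promoter call was larger for genes with more TSSs, at 28.9% of genes with 1 TSS, 46.2% with 2, 71.4% with 3 to 5 and 91.3% with 6 or more. There were 1284 calls (19.7%) within 500 bp of TSSs of 2 or more genes, so a call may count for neighbours. In 901 calls (13.8%) the nearest gene also had an IDR promoter peak, and 626 calls (9.61%) lay within 1000 bp of an IDR summit. Most calls were alone at their gene, with 4454 genes having 1 call, 1141 having 2 and 260 having 3. Pde8, a cyclic nucleotide phosphodiesterase, had 9, with signals of 16.4 to 40.4 over 10 TSSs, and 4 of the 9 were in both replicates. The kinase genes Tlk and sgg had 7 each, as did mtd, and CG42748 was 1 of 9 genes with 6.

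The 20 weak promoter calls of highest signal, between 64.31 and 64.85, lay at genes of many kinds. Of these, 18 were backed by both replicates and 13 lay upstream of their TSS, near the 87.7% and 68.4% of the strongest signal band. At Dcp-1, an effector caspase gene, the summit stood 6 bp upstream (position −6 bp) with a pooled signal of 64.8, and replicate 1 gave 47.5 and replicate 2 gave 21.9. EcR, the ecdysone receptor gene, had its summit 334 bp upstream (position −334 bp) with 64.7 pooled, 35.6 in replicate 1 and 42.0 in replicate 2. The gene chico, whose product passes on the insulin signal, had its summit 4 bp downstream with 64.3 pooled, 44.4 in replicate 1 and 25.9 in replicate 2. At a pooled signal held within so narrow a range, a high value in one replicate goes with a low value in the other by the choice of the calls. The widest gaps among calls in both were at CG33725, with 13.1 in replicate 1 and 46.8 in replicate 2, and at PKD, the protein kinase D gene, with 49.8 and 13.1. The others in both replicates were CG30414, CG12702, CG1307, CSN7 of the COP9 signalosome, CG4199, chk, CG15740, the polarity gene scrib, the glycogen synthase gene Glys, CG9287, frtz, CG1695 and CG11699.

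Of the top 20, the call at M1BP had a summit of neither replicate within 200 bp. The M1BP gene encodes the protein that binds the word GGTCACAC. Its call, 63 bp upstream of the TSS (position −63 bp) with a pooled signal of 64.5, had its nearest replicate summits 274 bp away in replicate 1 (signal 35.5) and 283 bp away in replicate 2 (signal 68.8), past the distance used. At the other end, the weakest calls backed by both replicates were at lncRNA:CR43605 with a pooled signal of 15.67, asRNA:CR44806 with 15.69 and the tropomyosin gene Tm1 with 15.73. The Tm1 call had 21.8 in replicate 1 and 7.89 in replicate 2.

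Ribosomal protein genes mostly carried IDR promoter peaks, beside the background of 24.6% of protein-coding genes. Most of those with a weak promoter call had no IDR promoter peak, and the same was true of 4303 of the 4935 protein-coding genes with a weak promoter call. Of 90 cytosolic ribosomal protein genes, 22 (24.4%) had a weak promoter call, 17 of them with no IDR promoter peak, 63 had an IDR promoter peak only, and 5 had neither, among them RpL10Aa and RpL21. The highest weak calls were at RpL9, with 61.1 pooled, RpL27A with 60.9 and RpL5 with 60.6. Of 73 mitochondrial ribosomal protein genes, 27 had a weak promoter call and 38 an IDR promoter peak only, of 48 proteasome genes 14 and 16, and of 50 translation factor genes 20 and 19. These shares of weak calls lie on both sides of the background of 35.6%, and nothing particular to the groups can be read from them.

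Of the 21 lists, the insulator and interband protein genes had the largest share with a weak promoter call. Of 15 insulator and interband protein genes, 12 (80.0%) had a weak promoter call, against 35.6% of protein-coding genes. Of these 12, 5 had an IDR promoter peak as well, and 2 other genes of the list had an IDR promoter peak only. Of the strongest calls of the 12 genes, 11 were backed by both replicates, against 53.0% over all protein-coding genes with a call. In the top signal band lay 11 as well, against 35.5%, but not the same 11, since the call at M1BP lay in that band with a summit of neither replicate. At CTCF, an insulator protein gene, the summit was 8 bp upstream (position −8 bp) with 55.1 pooled, 30.2 in replicate 1 and 23.0 in replicate 2. At mod(mdg4) it was 3 bp downstream with 60.3 pooled, 43.1 in replicate 1 and 15.7 in replicate 2. The gene pita shares its call with Dcp-1. With calls less than 1000 bp from an IDR interval left out, 7 of the 15 genes of this list remained, against 4409 of the 13865 protein-coding genes. Of 23 Polycomb and trithorax group genes, 12 (52.2%) had a weak promoter call, beside the same background of 35.6%. Another 10 had an IDR promoter peak only, and Sce alone had neither. Scm, a Polycomb group gene, had 63.6 pooled with 36.7 in replicate 1 and 28.0 in replicate 2, and ash2 had 61.0 with 56.4 and 21.0.

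In the wing hinge and neuronal identity lists, which hold genes of the tissues Zfh2 is known for, the calls were low in signal, and no gene had an IDR promoter peak, against 24.6% of protein-coding genes. Neither trait was particular to these lists. No Hox gene, 1 of 22 segmentation genes and 2 of 18 proneural and neuroblast genes had an IDR promoter peak. The median strongest signal was also low in the segmentation list, at 21.7, and in the proneural and neuroblast list, at 22.9. In the Hox list it was 35.5, above the 29.97 over all protein-coding genes with a call. Of 24 wing hinge and proximodistal patterning genes, 14 (58.3%) had a weak promoter call, against 35.6% of protein-coding genes. Their strongest calls had a median signal of 23.8 against 29.97 over all protein-coding genes with a call. Of these calls 3 of 14 (21.4%) were in both replicates, against 53.0% over all protein-coding genes with a call. In the list of replicate 2 alone 8 of the 24 genes had a call, against 4584 of the 13865 protein-coding genes, which is near the background of that list. The highest was at Dll, a gene of the distal limb, 127 bp upstream (position −127 bp) with 41.7 pooled, 38.1 in replicate 1 and no summit in replicate 2. Next was dac, with 35.2 pooled, 23.5 in replicate 1 and 12.7 in replicate 2. At dpp, a signalling gene of limb patterning, the call had 24.7 pooled, 13.6 in replicate 1 and 8.94 in replicate 2, and B-H1 and B-H2 had no call.

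Of 22 neuronal identity transcription factor genes, 15 (68.2%) had a weak promoter call, against 35.6% of protein-coding genes. The median strongest signal was 23.4, and 5 of 15 (33.3%) were in both replicates. Over all protein-coding genes with a call these values were 29.97 and 53.0%. The courtship gene fru had the highest call, 462 bp upstream of a TSS (position −462 bp), with 55.5 pooled, 28.7 in replicate 1 and 20.1 in replicate 2, followed by sqz with 50.3, 38.1 and 9.90. With summits required within 250 bp of a TSS, 9 of the 22 genes of the list had a call, against 3719 of the 13865 protein-coding genes. These patterning genes have many TSSs, 1.63 per gene in the wing list and 2.09 in the neuronal identity list against 1.404 over protein-coding genes, and by TSS the shares were 43.6% and 41.3% against 33.5%. Of 20 neuronal differentiation genes, 13 had a weak promoter call, beside the background of 35.6%. In both replicates were 10 of the 13 strongest calls (76.9%), against 53.0% over all protein-coding genes with a call. At Syx1A, a syntaxin of the synapse, the values were 46.9 pooled, 31.5 in replicate 1 and 23.6 in replicate 2, and at Fas2, a neural adhesion gene, 41.8, 31.9 and 9.73. The list's genes have 2.70 TSSs each, and by TSS its share was 37.0% against 33.5%, near the background. ChAT and Gad1 had no call.

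Other gene groups stood nearer to the background of 35.6% of protein-coding genes or below it. Of 21 Notch pathway genes 8 (38.1%) had a weak promoter call, led by mam with 48.0 pooled, 35.2 in replicate 2 and no summit in replicate 1. Of 18 proneural and neuroblast genes 5 (27.8%) had one, and the pros call, at 22.1, had no summit of either replicate. Of 10 Hox genes 3 (30%) had one, led by Dfd with 59.3 pooled, 25.1 in replicate 1 and 31.4 in replicate 2. Of 22 segmentation genes 3 (13.6%) had one (run, cad and inv, none above 23.6), while Kr and en had neither kind of call. Of 26 replication and cell cycle genes 9 (34.6%) had one and 12 (46.2%) had an IDR promoter peak only, against 20.02% of protein-coding genes with an IDR promoter peak only. Of 25 heat shock genes 6 (24%) had a weak promoter call.

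Cuticular protein, chemosensory receptor and histone genes had few weak promoter calls. Cuticular protein genes had a weak promoter call in 17 of 110 (15.45%) and chemosensory receptor genes in 12 of 179 (6.70%), against 35.6% of protein-coding genes. The median strongest signal of the cuticular protein genes was 19.2, against 29.97 over all protein-coding genes with a call. Of 114 histone genes 3 (2.63%) had a weak promoter call, beside the same 35.6%. These were His3.3A with 61.6, His4r with 45.5 and His3.3B with 34.7, and the repeated histone genes of the cluster had none. Reads were not used here, and whether a call could be made at those repeated copies was not tested. Among noncoding RNA genes, 112 of 290 tRNA genes (38.6%) had a weak promoter call, 81 of 268 snoRNA genes (30.2%) and 9 of 32 snRNA genes (28.1%), against 24.5% of 4181 noncoding genes. An IDR promoter peak only stood at 14 of the tRNA genes (4.83%), against 4.43% of noncoding genes. With summits required within 250 bp of a TSS, 63 of the tRNA genes, 39 of the snoRNA genes and 8 of the snRNA genes had a weak promoter call. The call at tRNA:Ser-AGA-2-4, 37 bp upstream (position −37 bp), had 62.9 pooled, 35.1 in replicate 1 and 24.2 in replicate 2. Clustered tRNA genes can share a call, and 70 of the 290 had one as the gene of the nearest TSS. A snoRNA gene can also share its call with another gene, as snoRNA:Me28S-A1322 does with eEF1alpha1.

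**Figure D5:**
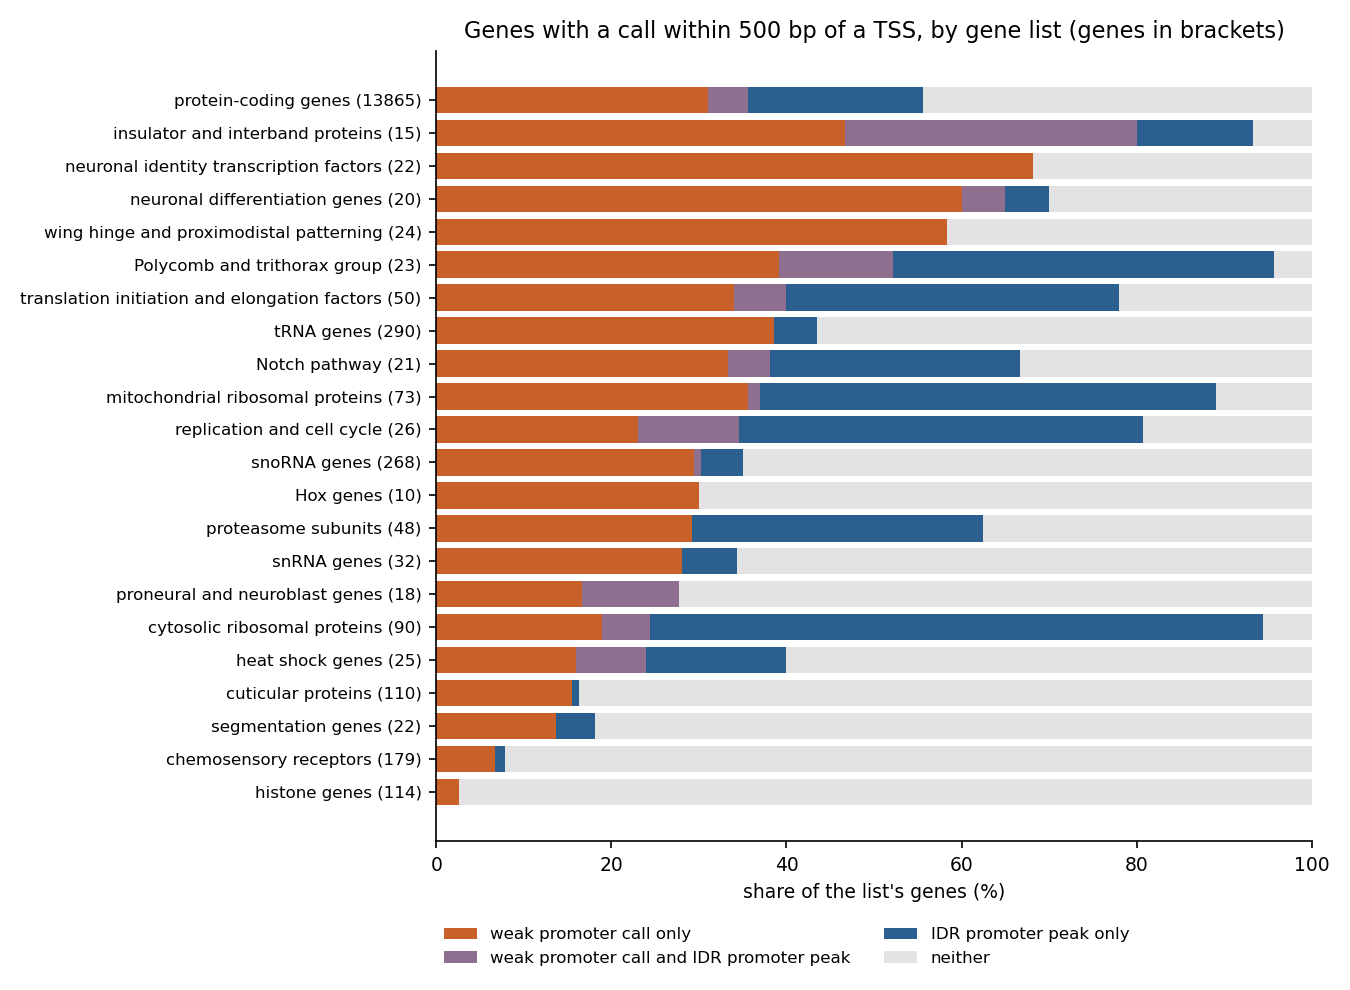
Share of the genes of each list (horizontal axis, %) with a weak promoter call only, with a weak promoter call and an IDR promoter peak, with an IDR promoter peak only, or with neither, with all protein-coding genes in the top row and the number of genes in brackets. Weak promoter calls reach 80.0% of insulator and interband protein genes and 2.63% of histone genes, against 35.6% of protein-coding genes. Whether calls could be made at the repeated histone genes was not tested.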

How the data were processed

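Both libraries entered through 4 dm6 peak lists deposited by the authors, with 10 columns and no header. Column 7 of the deposited lists is the peak caller's signal value, a score used only to rank or describe calls within a list. The authors' column 9 holds −log10 of a q-value, as the narrowPeak format defines it, and the summit offset is column 10 of the authors' lists. Per the description files deposited by the authors, each list was called with a control alignment, and the relaxed lists were IDR input. They held 30000 calls for replicate 1, 29690 for replicate 2 and 30000 pooled. Aligner and caller: not given in the sources used here. Reads, controls and the dm3 lists were not used here. TSSs and exons came from Ensembl release 115 without transposable elements, on the assembly of dm6.

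A gene counted as having a call when a summit lay within 500 bp of any of its TSSs. Shares of a gene list are of its genes found by symbol on the 5 arms. Windows reached 50 bp to each side of the summit, and flanks lay 1000 bp away. Tests were Fisher's exact and exact McNemar tests, two-sided, with Benjamini-Hochberg adjustment at 0.05 and 95% Clopper-Pearson intervals, in Python 3.11.15 with numpy 2.4.6, pandas 2.3.3 and scipy 1.17.1, tested on simulated data. Named genes are those of the 20 strongest calls, of which 1 is not reported here, the 5 genes with most calls (ties by symbol), up to 4 of each list with the strongest calls and up to 2 with none, the strongest call per word that passed a test, and the 3 weakest calls in both replicates. The calls, words and 21 gene lists were chosen with earlier results of these data known. Alternatives changed the TSS distance, the TSS set, the window, the flank, the replicate distance and the list used.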

Additional observations from a re-analysis of the deposited data

How the results depend on the processing

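No paired analysis was possible because there was 1 group. Of 833 values recomputed under other settings, 711 kept their side of the threshold or stayed within 1.5 times the reported count. Another 52 passed a threshold they had missed, 25 no longer passed, 38 moved and 7 reversed. Direction was compared only where the reported or the recomputed value passed. Changes of direction between values that both missed the threshold are thus among the 711. Differences in position, head-to-head promoters and the Dref word against IDR promoter peaks, and the difference of the strongest and weakest signal band in upstream summits, kept their direction and stayed past the threshold in each alternative run. With a promoter distance of 1000 bp there were 9964 weak promoter calls, and 6543 and 5731 in the lists of replicate 1 and replicate 2 alone. The number of words that differed from IDR promoter peaks, 8 as reported, was 5 in windows of 25 bp to each side, 5 against the IDR promoter peaks of lower signal, and 5 to 13 with a replicate left out. The number that differed from the flank, 7 as reported, was 12 within 250 bp of a TSS, 11 in windows of 100 bp to each side, 12 with the flank at 2000 bp, and 7 to 12 with a replicate left out. The rule bears on these flank counts too, and nothing is read from them. The number higher or lower in the strongest band, 3 as reported, was 5 at 250 bp, 8 at 1000 bp, 8 in windows of 100 bp to each side, and 4 to 6 with a replicate left out. With a replicate left out, 4 of the differences compared for direction turned round, in percentage points: TATAAA ranged between −5.88 and 1.23 against IDR promoter peaks and between −2.78 and 4.40 against the flank, and TAATTA between −3.10 and 0.27 and between −2.98 and 0.45, the higher value being that without replicate 1 each time. Within signal bands, support by both replicates turned round against other weak calls in band 2 with summits within 100 bp (−0.59 points), and in bands 3 and 4 with summits within 500 bp (3.68 and 0.79 points). The cause was not tested. Words held by few windows, such as Zelda's with 23, are limited by counting, and the read depth behind each call is unknown.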
